A study of Mus musculus with 6 samples.

Results

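The genes described here are 6 CC chemokine genes of the mouse, the monocyte chemoattractants Ccl2, Ccl7, Ccl8 and Ccl12 and the eotaxins Ccl11 and Ccl24. They were taken by symbol, and all 6 were found among the 22548 gene symbols of the deposited tables, each with 1 RefSeq transcript. RNA came from eosinophils grown from low-density bone marrow cells of wild-type BALB/c mice aged 4 to 8 weeks. Cultures ran for 14 days. They held SCF and FLT3 ligand, each at 100 ng/ml, up to day 4, and from that day IL-5 (10 ng/ml) took their place. The 6 groups were untreated cells at 1 h and at 4 h, cells given IL-4 at 10 ng/ml for 1 h or 4 h, and cells given IL-33 at 10 ng/ml for 1 h or 4 h. All of them thus shared the culture in IL-5, and each group had 1 library, so differences were not checked on replicates and p-values were not computed.

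Chemokines are small secreted proteins that draw leukocytes along a gradient by binding receptors coupled to G proteins. The monocyte chemoattractants Ccl2, Ccl7 and Ccl12 act mainly on monocytes through the receptor CCR2, while the eotaxins act on eosinophils through CCR3, the receptor that defines this cell. IL-4 signals through the IL-4 receptor to the transcription factor STAT6, which is known to drive eotaxin genes in several tissues. IL-33 signals through ST2 (Il1rl1) and MyD88 to NF-kB, a known activator of the Ccl2 gene. By its title, the series deals with IL-33 responses of mouse eosinophils that run through their own IL-4 and with responses that do not.

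Members of the family share 4 conserved cysteines, of which the first pair stands side by side and gives CC chemokines their name. The coding bases around that pair are shown because they place the 6 genes in 1 family and show how far their transcripts differ. Each window holds 30 bases from GENCODE M21 transcripts of build GRCm38, 5′ to 3′ in the coding direction, with the codons of the cysteine pair in capitals. All 6 windows lie in exon 2 of 3.
Ccl2: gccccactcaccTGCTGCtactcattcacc
Ccl7: aatgcatccacaTGCTGCtatgtcaagaaa
Ccl12: accccagtcacgTGCTGTtataatgttgtt
Ccl8: gctccagtcaccTGCTGCtttcatgtacta
Ccl11: atcccaacttccTGCTGCtttatcatgacc
Ccl24: atcccctcatctTGCTGCacgtcctttatt

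The window of Ccl2 lies on chromosome 11 at 82036494 to 82036523 of GRCm38, that of Ccl7 at 82046526 to 82046555, that of Ccl11 at 82061684 to 82061713, that of Ccl12 at 82102622 to 82102651 and that of Ccl8 at 82116044 to 82116073, all on the plus strand. The window of Ccl24 lies on chromosome 5 at 135572653 to 135572682 on the minus strand. Ccl24 has 2 adjacent cysteine pairs, at residues 19 and 33, and the pair at residue 33 is shown because it matches the position of the others. The coding sequences were 49.6% to 67.9% identical between pairs of members, and the longest stretch that any pair of transcripts shared without a mismatch was 23 bases, between Ccl2 and Ccl7. The length of the sequenced reads is not given in the sources used here, so whether shared stretches blurred the assignment of reads was not tested.

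In the authors' files, whose coordinates are of build mm9, 5 of the 6 genes form a cluster on chromosome 11. Ccl2 (NM_011333) spans 81849079 to 81850954, Ccl7 (NM_013654) 81859214 to 81861025, Ccl11 (NM_011330) 81871334 to 81876457, Ccl12 (NM_011331) 81915347 to 81916901 and Ccl8 (NM_021443) 81928687 to 81930301. Ccl24 (NM_019577) lies apart on chromosome 5 at 136045807 to 136048913.

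Values are FPKM, which scale fragments by transcript length and library size and so allow levels of different genes to be set side by side. Each of the 4 tables held 1 treated library with the untreated library of its time and had been normalised on its own. The values of the untreated libraries in the IL-33 tables were 0.945 times (1 h) and 0.947 times (4 h) those in the IL-4 tables, so each treated library is set against the control column of its own table. Change is log2((treated FPKM + 1) / (control FPKM + 1)), and a gene is called higher or lower when this reaches 1 in size, among genes whose higher FPKM of the pair was 1 or more. Low FPKM values moved in steps of 1 read, which gave an estimated number of reads behind each value. The same steps put the depth of the IL-4 libraries at 0.976 (1 h) and 1.24 (4 h) times their controls, and that of the IL-33 libraries at 1.16 and 1.89 times. Intervals on these reads and on ratios (95%, exact) cover counting error only and say nothing of the spread between cultures. The eosinophil marker Epx (eosinophil peroxidase) stood between 1327 and 2166 FPKM in all libraries, and none of 12 eosinophil markers passed the size rule in any comparison. With IL-33 at 4 h, 10 of the 12 lay below 0 (median log2 change -0.14). Among them were Il5ra (-0.89), Alox15 (-0.76) and Epx (1920 FPKM untreated and 1327 treated), while Gata1 (0.72) and Ear1 (0.07) lay above 0.

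Ccl7, which attracts monocytes and also eosinophils through CCR1, CCR2 and CCR3, was the most abundant member in every library. At 1 h it stood at 20.4 FPKM in untreated cells and 60.7 with IL-4, and, in the separately scaled IL-33 table, at 19.3 untreated and 39.9 with IL-33. At 4 h the values were 26.9 untreated and 130.1 with IL-4, and 25.4 untreated and 119.6 with IL-33. Every treated library thus lay above its untreated partner, with the highest levels at 4 h. The log2 changes were 1.53 and 2.23 with IL-4 at 1 h and 4 h and 1.01 and 2.19 with IL-33. These values rest on about 257 and 250 reads in the untreated libraries and on 616 to 2224 reads in the treated ones. The FPKM ratio was 2.98 (counting interval 2.58 to 3.44) with IL-4 at 1 h, 4.84 (4.23 to 5.55) with IL-4 at 4 h, 2.07 (1.79 to 2.40) with IL-33 at 1 h and 4.70 (4.12 to 5.38) with IL-33 at 4 h. In abundance, Ccl7 moved from rank 3292 among all symbols in untreated cells of 4 h to rank 751 with IL-4 and rank 841 with IL-33.

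Ccl2, the main ligand of CCR2 and the best known monocyte attractant, was less abundant than Ccl7. At 1 h it stood at 5.75 FPKM untreated and 17.6 with IL-4 in the first table, and at 5.43 untreated and 11.6 with IL-33 in the other. At 4 h it stood at 7.04 untreated and 25.9 with IL-4, and at 6.67 untreated and 31.7 with IL-33. All treated values were above the untreated ones, and IL-33 at 4 h gave the highest. The log2 changes were 1.46 and 1.74 with IL-4 at 1 h and 4 h and 0.97 and 2.09 with IL-33. About 74 and 67 reads lay behind the untreated values and 183 to 601 behind the treated ones. The ratio of Ccl2 was 3.06 (2.34 to 4.04) and 3.68 (2.81 to 4.85) with IL-4 and 4.75 (3.68 to 6.20) with IL-33 at 4 h. With IL-33 at 1 h, Ccl2 therefore lay just outside the size rule and Ccl7 (1.01) just inside it, although their FPKM ratios of 2.14 (1.62 to 2.84) and 2.07 differed by less than their counting intervals. Against the untreated library of 4 h, the Ccl7 change with IL-33 at 1 h was 0.63 and no longer passed the rule. Ccl7 stood at 3.43 to 5.02 times the FPKM of Ccl2 in every library, with the highest value for IL-4 at 4 h.

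**Figure D1:**
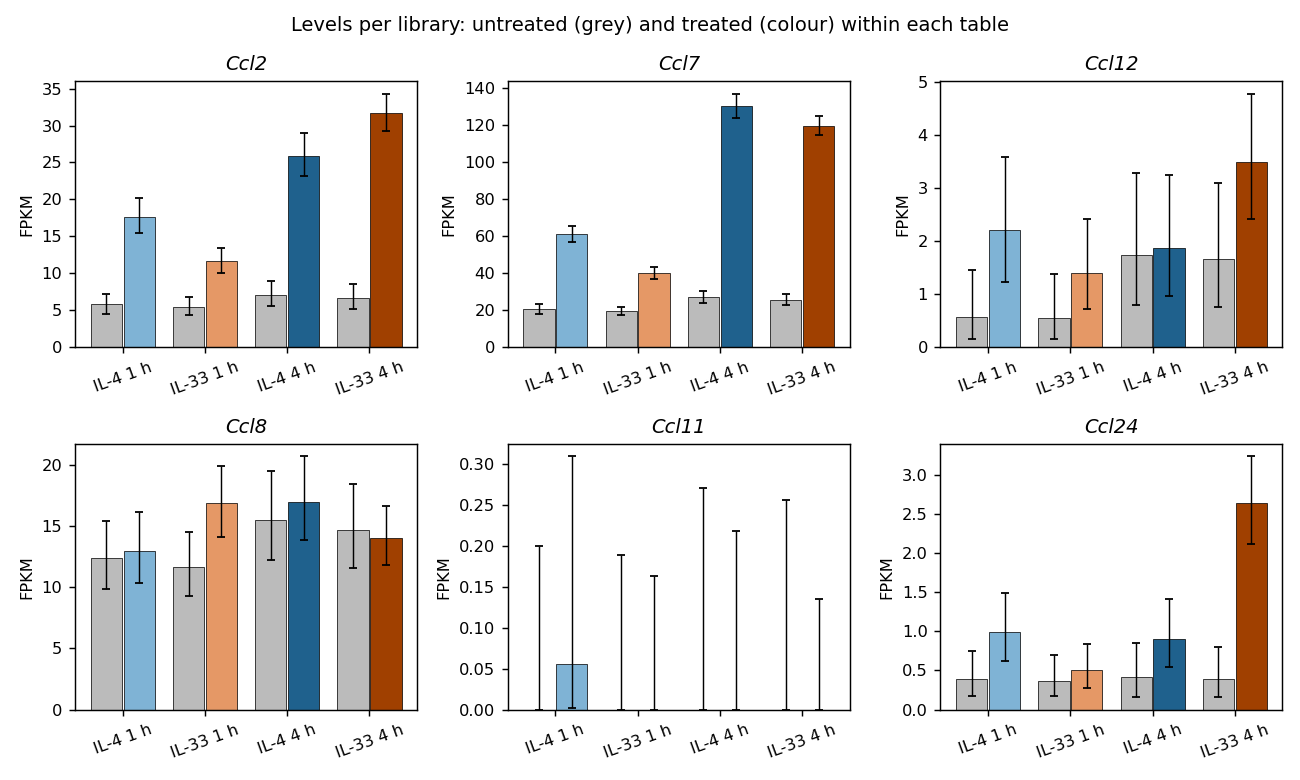
FPKM of the 6 chemokine genes for each table (x axis, named by its treated library), with the untreated library in grey and the treated one in colour; 1 library per bar, and bars of error are 95% counting intervals from estimated reads. Ccl2 and Ccl7 stand above their untreated partner with both cytokines at both times, Ccl24 stands highest with IL-33 at 4 h (2.64 FPKM), and Ccl11 is listed at 0 in all but 1 library.

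Ccl12, a mouse chemokine that acts on monocytes through CCR2, was low throughout. It stood at 0.572 FPKM untreated and 2.20 with IL-4 at 1 h, and at 1.74 untreated and 1.87 with IL-4 at 4 h. In the IL-33 tables it stood at 0.540 untreated and 1.3997 with IL-33 at 1 h, and at 1.65 untreated and 3.49 with IL-33 at 4 h. Only the value with IL-4 at 1 h passed the size rule, with a log2 change of 1.03, against 0.07 with IL-4 at 4 h and 0.64 and 0.76 with IL-33 at 1 h and 4 h. These values rest on about 4 reads in the untreated library of 1 h, 9 in that of 4 h and 12 to 36 in the treated libraries. The ratio with IL-4 at 1 h was 3.85 with a counting interval of 1.22 to 15.9, and the intervals of the other 3 ratios reached below 1. Against the untreated library of 4 h, the change of Ccl12 with IL-4 at 1 h was 0.22 and no longer passed the rule, and with FPKM + 5 it was 0.37. In turn, the change with IL-33 at 4 h passed the rule with FPKM + 0.1 (1.04) and against the untreated library of 1 h (1.54).

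Ccl8, known in the mouse as a ligand of CCR8, was the second most abundant member in untreated cells and was not past the size rule in any comparison. It stood at 12.4 FPKM untreated and 12.996 with IL-4 at 1 h, and at 15.5 untreated and 17.0 with IL-4 at 4 h. In the IL-33 tables it stood at 11.7 untreated and 16.9 with IL-33 at 1 h, and at 14.7 untreated and 14.1 with IL-33 at 4 h. The log2 changes were 0.07, 0.13, 0.50 and -0.06 in the same order. About 81 and 75 reads in the untreated libraries and 83 to 136 in the treated ones lay behind these values. Of the 4 ratios, that of IL-33 at 1 h, 1.45, had a counting interval above 1 (1.09 to 1.92), and the intervals of the other 3 held 1. Ccl8 made up 30.0% to 31.3% of the summed FPKM of the 6 genes in untreated cells and 8.20% with IL-33 at 4 h.

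Among the eotaxins, Ccl11 was listed at 0 in both untreated libraries and in 3 of the 4 treated ones, and at 0.0560 FPKM with IL-4 at 1 h, a value of about 1 read. For Ccl11, 3 reads amount to 0.110 to 0.220 FPKM in these libraries, and the counting interval of 0 reads reaches 3.69 reads. Levels of that size or lower could thus be missed at this depth, and no change is given. Ccl24, the other eotaxin, stood at 0.393 FPKM untreated and 0.986 with IL-4 at 1 h, and at 0.414 untreated and 0.905 with IL-4 at 4 h. In the IL-33 tables it stood at 0.372 untreated and 0.499 with IL-33 at 1 h, and at 0.392 untreated and 2.64 with IL-33 at 4 h. The last of these libraries stood apart from the other 5. Its log2 change of 1.39 passed the size rule, while the others were 0.51 and 0.43 with IL-4 at 1 h and 4 h and 0.13 with IL-33 at 1 h. About 7 reads lay behind the untreated value of 4 h and 89 behind that with IL-33, a ratio of 6.73 (3.13 to 17.2). For IL-4 the ratios were 2.51 (1.11 to 6.18) at 1 h, from 9 and 22 reads, and 2.18 (0.880 to 6.16) at 4 h, from 7 and 19 reads. With a scale of FPKM + 1, such low levels keep the log2 change small, and with FPKM + 5 that of Ccl24 with IL-33 at 4 h was 0.50, no longer past the rule.

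**Figure D2:**
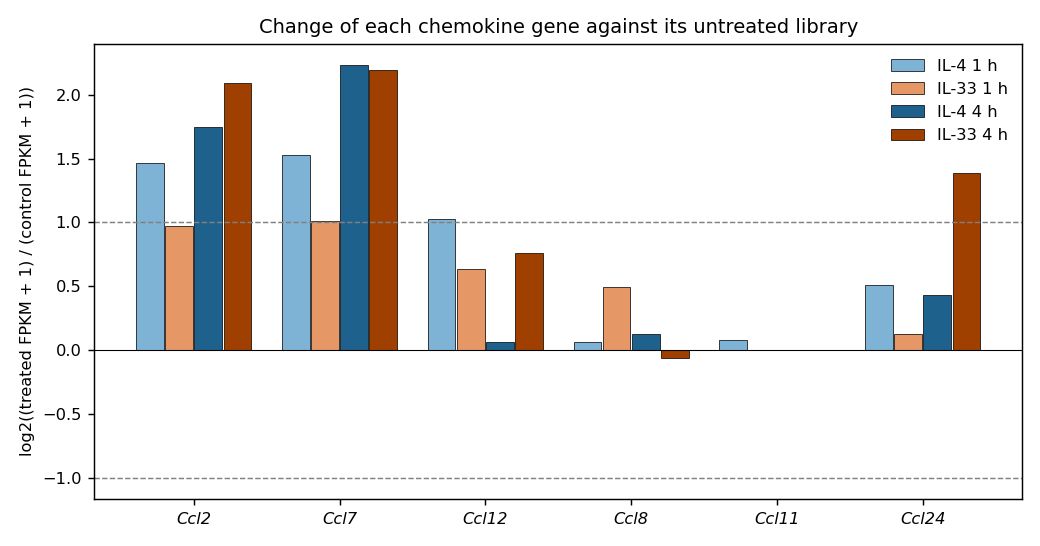
Log2 change of FPKM + 1 against the untreated library of the same table (y axis) for each gene (x axis) and treated library (colour), with dashed lines at the size rule of 1. Ccl2 and Ccl7 lie between 0.97 and 2.23, while Ccl8 stayed between -0.06 and 0.50.

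With IL-4 at 1 h, 3 of the 6 genes were called higher (Ccl2, Ccl7 and Ccl12), where 0.470% of all 10628 genes compared were higher and 0.358% lower. At 4 h, 2 were called higher with IL-4 (Ccl2 and Ccl7), where 0.646% of 10833 genes were higher and 0.351% lower. IL-33 gave 1 higher call at 1 h (Ccl7), where 2.36% of 10616 genes were higher and 0.669% lower. At 4 h it gave 3 (Ccl2, Ccl7 and Ccl24), where 4.15% of 10803 genes were higher and 1.38% lower. None of the 6 was called lower in these comparisons. With 6 genes, these counts describe the members and are not tests. The median log2 change of the 6 was 0.77 and 0.28 with IL-4 at 1 h and 4 h and 0.57 and 1.07 with IL-33, beside medians of -0.02, 0.02, -0.01 and -0.03 over all genes compared. Of the 6 genes, 4 reached FPKM of at least 1 in each of the first 3 comparisons and 5 with IL-33 at 4 h, where Ccl24 passed through its treated library only, as Ccl12 did at 1 h in both tables.

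Both cytokines were set against each other at each time through the untreated library they shared. At 1 h the level with IL-33 was 0.698 times (0.571 to 0.853) that with IL-4 for Ccl2 and 0.696 times (0.625 to 0.776) for Ccl7, so both were higher with IL-4 beyond counting error. At 4 h the ratio was 1.29 (1.12 to 1.49) for Ccl2, now higher with IL-33, and 0.973 (0.911 to 1.04) for Ccl7. Ccl24 stood 3.07 times (1.86 to 5.34) as high with IL-33 as with IL-4 at 4 h. For Ccl12 the 4 h ratio was 1.97 (1.00 to 4.15). In log2 change, none of the 6 differed between the cytokines by 1 or more at either time, Ccl24 being nearest with 0.96. Of 10748 genes at 1 h, 2.34% were higher by that much with IL-33 and 0.661% lower, and of 10976 genes at 4 h, 3.66% and 1.07%.

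From 1 h to 4 h the change with IL-33 grew by 1.12 for Ccl2, 1.18 for Ccl7 and 1.26 for Ccl24, 3 members past 1. Of 11015 genes, 2.77% were past 1 upward and 1.84% downward. Ccl24 reached FPKM of 1 only in the library of IL-33 at 4 h. With FPKM + 5 the IL-33 changes at 1 h and 4 h were 0.67 and 1.65 for Ccl2 and 0.89 and 2.03 for Ccl7. Those of Ccl24 were 0.03 and 0.50, so only Ccl7 then grew by 1 or more. Counting intervals were not computed for this growth. With IL-4 the growth was 0.28 for Ccl2, 0.71 for Ccl7 and -0.08 for Ccl24, and that of Ccl12 was -0.96, none past 1, where 0.790% of 11016 genes were upward and 0.626% downward. Between the untreated libraries, compared across the IL-4 tables, Ccl2, Ccl7 and Ccl8 stood 1.23, 1.32 and 1.25 times as high at 4 h as at 1 h, with counting intervals of 0.868 to 1.73, 1.10 to 1.57 and 0.904 to 1.74. The largest such difference was that of Ccl12, at 3.05 times (0.851 to 13.5) and a log2 change of 0.80, from about 4 and 9 reads. None of the 6 passed the size rule there, where 0.879% of 10813 genes were higher at 4 h and 1.56% lower. Over all genes that comparison had a median log2 change of 0.10.

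**Figure D3:**
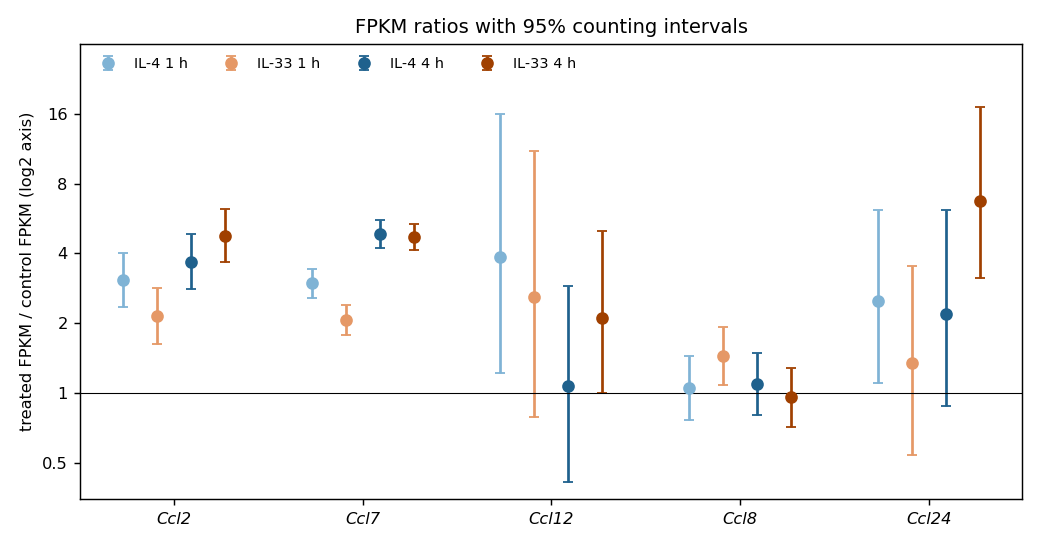
Ratio of treated to untreated FPKM (y axis, log2 scale) for the 5 genes with reads in both libraries, with 95% counting intervals as bars and colours for the 4 treated libraries. The intervals of Ccl2 and Ccl7 are narrow and above 1, those of Ccl12 are wide (1.22 to 15.9 with IL-4 at 1 h), and Ccl24 with IL-33 at 4 h stands at 6.73.

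Along the chromosome 11 cluster the changes were unequal. Ccl2 and Ccl7, whose starts lie 10.1 kb apart, had log2 changes within 0.49 of each other in each comparison. Ccl11 starts 22.3 kb from Ccl2 and was at 0 or about 1 read throughout. Ccl12 and Ccl8 start 66.3 kb and 79.6 kb from Ccl2 and 13.3 kb from each other. Ccl1, the next gene of the cluster in the files, encodes a further CCR8 ligand and was listed at 0 in both untreated libraries and at 1.18 FPKM with IL-33 at 4 h. Next to Ccl24 on chromosome 5, Ccl26 was listed at 0 in all 6 libraries.

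**Figure D4:**
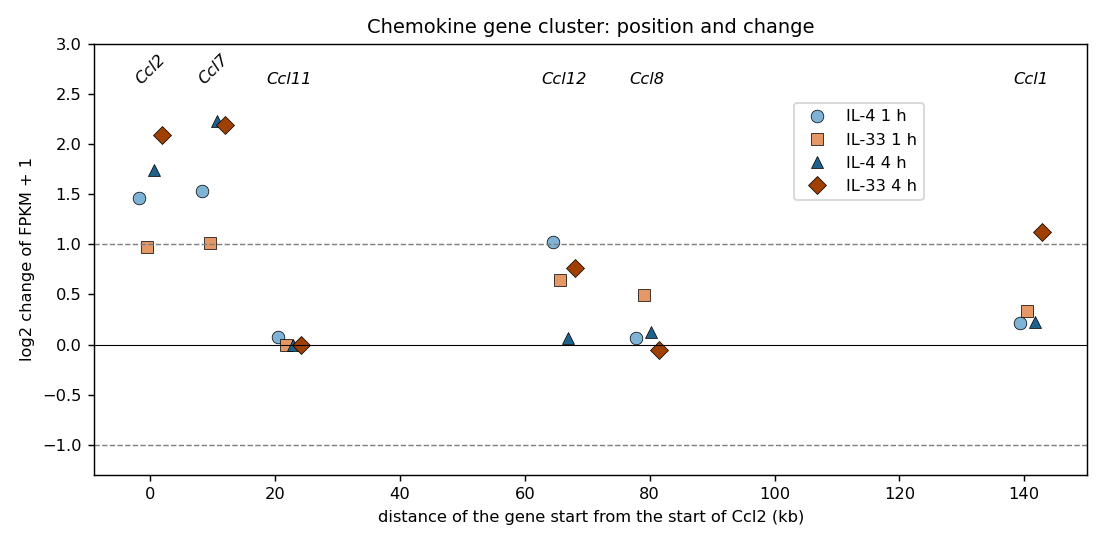
Log2 change of FPKM + 1 (y axis) of the cluster genes on chromosome 11 against the distance of their start from that of Ccl2 in kb (x axis), with 1 marker per treated library, moved slightly sideways to be seen, and dashed lines at 1 and -1. The largest changes are those of Ccl2 and Ccl7 at the left end, while Ccl11 lies at 0 to 0.08 and Ccl8 at -0.06 to 0.50.

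Upstream sequences were matched for 2 of the 6 genes, Ccl12 and Ccl8, in RefSeq promoters of build GRCm38.p6. They are shown because they are neighbours in the cluster, of which Ccl12 was called higher with IL-4 at 1 h and Ccl8 was not. Their ratios there, 3.85 (1.22 to 15.9) and 1.05 (0.764 to 1.44), had overlapping counting intervals, and the Ccl12 call was lost under the alternatives given above. Each run holds the 250 bases before the annotated start on the plus strand, at chr11:82101595-82101844 for Ccl12 and chr11:82114935-82115184 for Ccl8, with the TATA box (TATAAAA) in capitals.
Ccl12: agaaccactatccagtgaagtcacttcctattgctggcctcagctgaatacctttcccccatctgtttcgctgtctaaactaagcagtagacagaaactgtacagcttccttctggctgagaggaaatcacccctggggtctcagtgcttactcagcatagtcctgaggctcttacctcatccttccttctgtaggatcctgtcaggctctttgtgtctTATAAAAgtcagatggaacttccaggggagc
Ccl8: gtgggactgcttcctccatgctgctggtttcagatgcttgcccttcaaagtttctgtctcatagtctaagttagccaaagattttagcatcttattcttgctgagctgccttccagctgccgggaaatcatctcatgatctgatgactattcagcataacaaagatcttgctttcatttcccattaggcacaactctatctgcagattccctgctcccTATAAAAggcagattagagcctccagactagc

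Aligned end to end, the 2 upstream runs were 56.9% identical. TATAAAA begins at base -31 in Ccl12 and -32 in Ccl8, counting -1 as the last base before the start, and 4.98% of all 32851 promoters of the same length hold it on either strand. This motif was added after the sequences had been seen. Both strands were also searched for the STAT half-sites TTC and GAA with 4 bases between them (5.85% of all promoters) or 3 (7.02%), for the AP-1 motif TGANTCA (6.75%) and for the NF-kB form of GGG, 3 bases of any kind and then TTCC (4.65%), TCCC (4.77%) or TGCC (5.41%). None of these patterns occurs in either run, so none overlaps another there.

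Transcripts of the members' receptors were, apart from Ccr8, present in these libraries, and which cells of the culture held them was not tested. Ccr3, the eotaxin receptor of eosinophils, stood at 533 FPKM untreated and 519.7 with IL-4 at 1 h, and at 504 untreated and 396 with IL-33 at 1 h. Ccr1 stood at 201 and 211 FPKM in the first of these tables and at 114 untreated and 155 with IL-33 at 4 h. Ccr2 lay between 6.74 and 12.7 FPKM in all libraries. Ccr8 was listed at 0 or at no more than 0.0813 FPKM. Of 10 chemokine receptors and decoys, 5 reached FPKM of at least 1 in each comparison. Only Ccrl2, an atypical receptor that binds chemerin, passed the size rule, with IL-33 at 1 h (59.3 to 666 FPKM) and at 4 h (22.2 to 87.6).

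The rest of the CC chemokine family was taken from a list. Of 15 other CC chemokine genes, 7 were compared with IL-4 at each time and none passed the size rule (median log2 change 0.02 at 1 h and 0.14 at 4 h). With IL-33, 3 of 8 were higher at 1 h and 5 of 7 at 4 h (medians 0.50 and 1.51), and none was lower. Ccl3 and Ccl4, attractants of macrophages and T cells, went from 335 to 1423 and from 132 to 505 FPKM with IL-33 at 1 h. At 4 h with IL-33, Ccl3 went from 158 to 2827 FPKM and Ccl4 from 26.9 to 178. Smaller log2 changes at 4 h were those of Ccl9 (115 to 328 FPKM) and Ccl5 (15.3 to 55.3). With IL-4 at 4 h, Ccl3 stood at 166 untreated and 179 treated, while Ccl7 stood at 26.9 and 130.1. Ccl6, a CC chemokine of myeloid cells, was the most abundant of those listed, at 4171 to 7779 FPKM, and was not past the rule in any of the 4 comparisons.

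In the list of 12 IL-4 receptor and STAT6 pathway genes, 2 were higher with IL-4 at 1 h (Socs1 and Cish), 1 at 4 h (Socs1), 2 with IL-33 at 1 h (Il13 and Cish) and 6 with IL-33 at 4 h, and none was lower. Socs1, a STAT6 target that restrains cytokine receptors, stood at 2.80 FPKM untreated and 18.4 with IL-4 at 1 h and at 4.11 and 21.5 at 4 h. With IL-33 it stood at 2.65 and 4.54 at 1 h and at 3.89 and 18.6 at 4 h. The 6 genes with IL-33 at 4 h were Socs1, Il13, Cish, Il2rg, Tyk2 and Jak2, of which the cytokine gene Il13 went from 0.971 to 46.8 FPKM and Il2rg, a shared receptor chain, from 38.8 to 182. Il4ra stood between 7.67 and 12.9 FPKM and Stat6 between 112 and 129.999 in all libraries, neither past the rule. Il4 itself stood at 82.8 FPKM untreated and 104 with IL-33 at 4 h. Of 16 genes of the NF-kB pathway and of chemokine mRNA decay, 15 were compared at each point. None passed the rule with IL-4, and 6 were higher with IL-33 at each time, among them Nfkbiz (4.30 to 366 FPKM at 1 h), Zc3h12a, a ribonuclease that cleaves cytokine mRNA (6.71 to 172), Nfkbia (68.7 to 1083) and Nfkb2 (15.1 to 116).

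The genes with the most similar pattern were found by Euclidean distance over the 4 log2 changes, among 7641 or 7642 symbols with FPKM of at least 5 in some library. Nearest to Ccl2 was Ccl7 (distance 0.51), then Egr2 (1.04) and Socs1 (1.04). For Ccl7 the nearest were Ccl2, Socs1 (0.94) and Egr2 (1.22). Among the nearest to Ccl12 were Csrnp1 (0.61) and Slc25a25 (0.73), and nearest to Ccl24 were Ripk2 (0.07), Sgce (0.33) and Egln3 (0.44). The 4 changes share 2 untreated libraries, so these distances are a description only.

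Transcripts of other cell types known to make these chemokines were present in the same libraries, and in bulk RNA fewer cells of a type and less RNA per cell cannot be told apart. The 23 monocyte and macrophage markers summed to 4354 FPKM untreated and 4358 with IL-4 at 1 h, and to 3229 and 3070 at 4 h. With IL-33 they stood at 4114 untreated and 4220 treated at 1 h, and at 3059 and 3406.5 at 4 h. Csf1r, the receptor of the macrophage growth factor, stood at 91.2 and 90.1 FPKM in the IL-4 table of 1 h, at 97.8 and 103 in that of 4 h, and at 92.6 untreated and 217 with IL-33 at 4 h. Of this list, 1 gene was higher with IL-4 at 4 h (Mrc1), 1 with IL-33 at 1 h (Cd14) and 3 with IL-33 at 4 h (Csf1r, Cd14 and Mrc1), and Marco was listed at 0 in both libraries of each table. With IL-33 at 4 h the median log2 change of the 19 markers compared was -0.25 and 13 lay below 0, none past the rule, among them Ccr2 (-0.75), F13a1 (-0.57), Apoe (-0.43) and Lyz2 (-0.33). The genes that added most FPKM to the sum there were Cd14, Csf1r, Ly6c1 (632 and 775 FPKM) and Ly6c2 (859.9 and 1057), and the part of these markers in the IL-33 results was not tested. With IL-4, the summed level of this list was 1.00 (1 h) and 0.951 (4 h) times its control while Ccl7 stood at 2.98 and 4.84 times its control.

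The 14 fibroblast and stromal markers summed to 8.84 FPKM untreated and 17.996 with IL-4 at 1 h, and to 8.36 and 15.3 with IL-33 at 1 h. Col1a1, Col1a2 and Sparc passed the rule with IL-4 at 1 h, with Col1a1 at 0.443 and 2.93 FPKM. In that comparison Ccl2, Ccl7 and Ccl12 were also called higher. With IL-33 at 1 h the changes of Col1a1, Col1a2 and Sparc were 0.87, 0.83 and 0.59, none past the rule, beside 0.97 for Ccl2, 1.01 for Ccl7 and 0.64 for Ccl12. The part of these markers in the chemokine values was not tested at either time. At 4 h the list summed to 5.60 untreated and 7.78 with IL-4, and to 5.31 and 8.76 with IL-33, with none past the rule. Within the list at 4 h, Col1a1 stood at 0.494 FPKM with IL-4 and 0.301 with IL-33, while Pdgfrb stood at 1.98 untreated and 4.75 with IL-33 (log2 change 0.95) and Cxcl12 at 0.0409 and 0.472. Heart muscle markers summed to 139 FPKM untreated, 103 with IL-4 and, in its own table, 101 with IL-33 at 1 h, against 1.43 to 2.02 FPKM at 4 h, and their part in the 1 h values was not tested. Mast cell and basophil markers summed to 400 FPKM untreated and 405 with IL-4 at 1 h, and to 386 and 396 at 4 h. With IL-33 they stood at 378 and 447 at 1 h and at 366 and 409 at 4 h. The 9 neutrophil markers found summed to 7224 and 7319 with IL-4 at 1 h, and to 8359 and 8316 at 4 h. With IL-33 these stood at 6826 and 7327 at 1 h and at 7919 and 5969 at 4 h. No gene of either list passed the rule, and their part in the chemokine values was not tested.

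**Figure D5:**
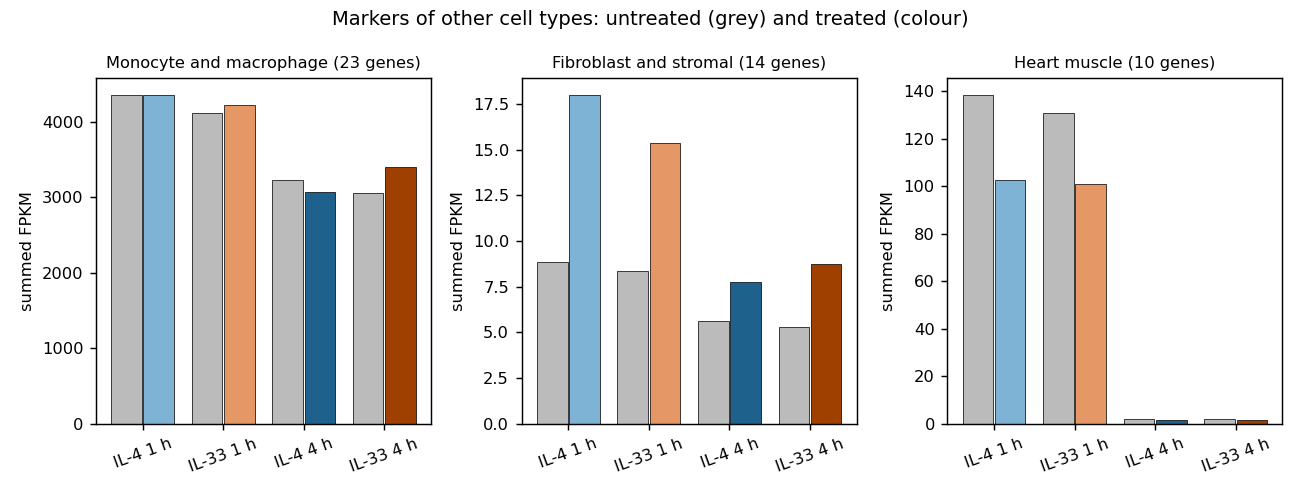
Summed FPKM (y axis) of 3 lists of markers of other cell types in each table (x axis), with the untreated library in grey and the treated one in colour. The stromal sum is 17.996 with IL-4 at 1 h against 8.84 untreated, the monocyte and macrophage sum stays at 4354 and 4358 in that table, and the heart muscle sum is above 100 in the 1 h libraries and at most 2.02 at 4 h.

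In the authors' deposited tables, Ccl2 and Ccl7 were marked as changed in all 4 comparisons, with q-values of at most 0.00592, and Ccl24 was marked with IL-33 at 4 h (q = 0.000419). No mark was given to Ccl8 or Ccl12 in those tables, the smallest q of Ccl12 being 0.107 with IL-4 at 1 h, and Ccl11 was not tested by the authors. These marks compare the reads of 2 libraries and not the conditions. The authors' deposited list of regulated genes holds Ccl2 and Ccl7 but not Ccl24.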

How the data were processed

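RNA-seq was done on 6 libraries, 1 for each of 6 groups, so no replicates were averaged and depth limits only counting precision. FPKM values per transcript were deposited by the authors in 4 tables, each normalised on its own. Reads were aligned with TopHat 1.4.1 and quantified with Cuffdiff 1.2.1 on build mm9, per the submitters' processing notes. The q-value columns come from the authors' deposited tables, and the log2 fold changes of the list of regulated genes are the authors' deposited values. No source used here gives the read length or RefSeq release. The 28702 transcripts were summed per symbol (22548 symbols), keeping 1 locus for the 232 symbols at several. Calls used a pseudocount of 1, FPKM of at least 1 and a log2 change of 1. Reads were estimated from the step of low values, as FPKM × (transcript length - 199) divided by the step, with GENCODE M21 lengths of the same RefSeq transcripts. Of low values used, 64.1% to 67.2% lay within 0.15 of a whole number of reads, so lengths did not match for all genes. Ratios have exact conditional (Clopper-Pearson) intervals. The steps were tried on simulated reads made with the same lengths and formula, which cannot test whether the lengths match the real data. Named genes were the 6 members, their receptors, Il4ra, Stat6 and Socs1, up to 4 genes per list past the rule with FPKM of at least 5, and the 3 nearest genes by pattern, of which a few are not reported here. Others named, such as Il4, Ccl6, Ccl1 and single marker genes, were chosen after their values were seen. The members and lists were chosen with earlier results of these data known. Python 3.11.15, pandas 2.3.3 and SciPy 1.17.1 were used. Alternatives were other pseudocounts, no filter, the highest transcript per symbol, the control of the other time and median centring.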

Additional observations from a re-analysis of the deposited data

Results flagged for a closer look

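Ccl8 was the member whose change had opposite signs in comparisons of the same kind. With IL-33 its log2 change was 0.50 at 1 h and -0.06 at 4 h, and at 4 h it was 0.13 with IL-4 and -0.06 with IL-33. Each sign rests on 1 library per group, none of the values passed the size rule, and the differences were not tested.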

How the results depend on the processing

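No paired analysis was possible because each group had 1 library, and no replicate could be left out for the same reason. Of 180 member values under alternatives, 168 stayed called or stayed uncalled, 5 lost the call, 7 gained one and none of the called ones changed sign. A call needs FPKM of at least 1 as well as the size rule. Ccl24 with IL-4 at 1 h reached 1.14 with a pseudocount of 0.1 and stayed uncalled because its FPKM was 0.986. The 168 include values that could not move. Taking the highest transcript changes nothing for members with 1 transcript each. Dropping the filter cannot change a call, since a change of 1 with FPKM + 1 needs FPKM of at least 1. The lost calls were Ccl12 with IL-4 at 1 h (0.37 with a pseudocount of 5, 0.22 against the other control), Ccl7 with IL-33 at 1 h (0.89 and 0.63 in the same order) and Ccl24 with IL-33 at 4 h (0.50 with a pseudocount of 5). Ccl12 with IL-33 at 4 h gained the call with a pseudocount of 0.1 (1.04) and against the other control (1.54), making 4 members higher in place of 3.
With a pseudocount of 0.1, 3 members (Ccl2, Ccl7 and Ccl12) were higher with IL-33 at 1 h in place of 1, 1 (Ccl24) had a larger 4 h change under IL-33 than under IL-4, 1 (Ccl12) was higher in untreated cells at 4 h than at 1 h, and 1 (Ccl12) had a smaller IL-4 change at 4 h than at 1 h. With a pseudocount of 5 and against the other control, 0 members were higher with IL-33 at 1 h.
Over all genes, a pseudocount of 0.1 gave, for IL-4 at 4 h, 118 higher and 65 lower, for IL-33 127 lower at 1 h and 324 at 4 h, for IL-33 against IL-4 114 lower at 1 h and 296 at 4 h, and 233 higher in untreated cells at 4 h. The growth of the change from 1 h to 4 h, an alternative added after seeing the data, then passed 1 for 171 genes upward and 121 downward with IL-4 and for 398 downward with IL-33. A pseudocount of 5 gave, at 4 h, 44 higher for IL-4, 64 lower for IL-33 and 47 lower for IL-33 against IL-4, and 51 higher and 95 lower between the untreated libraries. The highest transcript per symbol gave 75 lower for IL-4 at either time. Against the control of the other time the counts were 178 higher and 117 lower (IL-4 1 h), 128 and 152 (IL-4 4 h), and 433 and 345 (IL-33 1 h).
Depth limits Ccl11, Ccl12 and Ccl24 most, with 0 to 9 reads in the untreated libraries.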
